A study of Mus musculus with 6 samples.

Results

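The insulin-like growth factor (IGF) binding proteins and the insulin and growth hormone (GH) axis were followed here through 10 genes: Igfbp1, Igfbp2, Igfbp3, Igfbp4, Igf1, Igfals, Ghr, Irs1, Irs2 and Insr. The genes were chosen by symbol, and all 10 were found among the 19764 genes of the table and passed the filter on low counts, as did 12275 genes in all. PolyA RNA had been sequenced from cultured primary hepatocytes of Bl6/N mice in 3 TNF and 3 Control libraries. TNF cells received 1 ng/ml TNF, a cytokine of inflammation, for 8 h. Also present were corticosterone at 1 µM, which activates the glucocorticoid receptor, and WY-14643 at 10 µM, which activates the fasting-related receptor PPARα. Control cells received vehicle in place of TNF with the same corticosterone and WY-14643 for the same 8 h, so that both groups carried the 2 ligands. All cells had first been starved for 16 h at 5 mM glucose, and the labels name no insulin, IGF-1 or GH among the additions to that medium. The model is a culture, with no pituitary or pancreas as a source of GH or insulin.

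The liver is the main source of circulating IGF-1, which GH induces through its receptor (GHR), the kinase JAK2 and the transcription factor STAT5. In blood IGF-1 is carried by binding proteins, chiefly in a complex of IGFBP-3 with the acid-labile subunit, while IGFBP-1 is a short-lived hepatic binding protein that rises in fasting. Insulin signals through its receptor (INSR) and the docking proteins IRS1 and IRS2, and it keeps FoxO transcription factors out of the nucleus. Igfbp1 and Irs2 are textbook targets of FoxO factors that insulin represses, and Igfbp1 is also induced by glucocorticoids.

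Library totals lay between 17612060 and 25114289 reads over genes. Of 10 hepatocyte markers all were tested, and Alb alone averaged 33298 CPM in TNF and 34932 CPM in Control libraries. Of 10 macrophage markers 6, including the Kupffer cell genes Clec4f and Timd4, had at most 3 reads in any library, and the list summed to between 147 and 233 CPM in TNF and between 144 and 231 CPM in Control libraries, most of it Cd68. Endothelial markers summed to between 95.6 and 172 CPM with TNF and between 97.6 and 177 CPM in Control, stellate markers to between 20.5 and 47.1 CPM with TNF and between 19.2 and 69.7 CPM in Control. Cholangiocyte markers summed to between 42.3 and 64.4 CPM with TNF and between 37.9 and 47.0 CPM in Control. Lymphocyte and neutrophil markers reached at most 0.345 CPM in TNF and 0.718 CPM in Control libraries. In the blocked limma fit with replicate number as a term, 4 hepatocyte markers (Apoa1, Ttr, Hnf4a and Cps1), the endothelial Stab2, the stellate Reln and the cholangiocyte Pkhd1 fell, and the endothelial Oit3 and the cholangiocyte Sox9 rose. Of all tested genes 11.2% fell and 9.40% rose in that fit. Without the replicate term none of these markers passed. The part of other cell types in the results that follow was not tested. In bulk RNA of this kind, fewer cells of a type and less RNA per cell cannot be told apart.

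Levels are given in CPM, read counts relative to the size of the library, as deposited but with the authors' prior removed. A change is TNF minus Control in log2(CPM + 1), a scale on which changes of low genes come out too small. The "unpaired" limma fit has the group as its only term, and the "blocked" fit adds the replicate number, which the data showed to pair the libraries. The words "rose" and "fell" mark genes past a Benjamini-Hochberg adjusted p of 0.05 in the blocked fit, adjusted over all tested genes. The blocked fit has few libraries for its terms, so its p-values rest mostly on variance borrowed from other genes, even more without a replicate number. The SD over the 3 pairs was 0.140 for Igfbp2, 0.147 for Igf1 and 0.103 for Igfbp4. These SDs imply larger SEs than the blocked 0.046, 0.049 and 0.038. Of the 10 genes only Insr went the other way (SD 0.051, SE 0.033). The labels do not say whether replicates were separate animals or cultures. The p-values therefore measure a spread between these libraries, largely pooled over genes in the blocked fit, which may be technical.

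With TNF, 8 of the 10 genes fell and Igfals rose in the blocked fit, in which 20.6% of all tested genes passed, 11.2% lower and 9.40% higher. Igfbp1 stood apart in size, at 41.1% of its Control level, and the other 7 that fell lay between 80.7% and 91.5% of Control. In the unpaired fit none of the 10 passed, against 0.440% of all genes, 0.0815% lower and 0.358% higher. Unpaired limma-voom also called 0 of the 10, and at an unadjusted p under 0.05 the unpaired fit had 3 lower and 1 higher, where 4.32% of all tested genes were lower and 4.46% higher. The median change of the 10 genes was -0.21, against -0.01 over all tested genes. In 3 genes, Igfbp1, Igfbp2 and Ghr, the TNF libraries all lay below the Control libraries, which 6.67% of all tested genes showed, and Igfals was the converse, as were 6.60% of all genes. Of the 10 genes 8 were lower in each of the 3 same-numbered pairs, which held for 27.7% of all genes, and Igfals was higher in each, as were 23.4%. These are the same genes that the blocked fit called, and that fit favours such agreement, so the counts are not separate evidence.

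**Figure D1:**
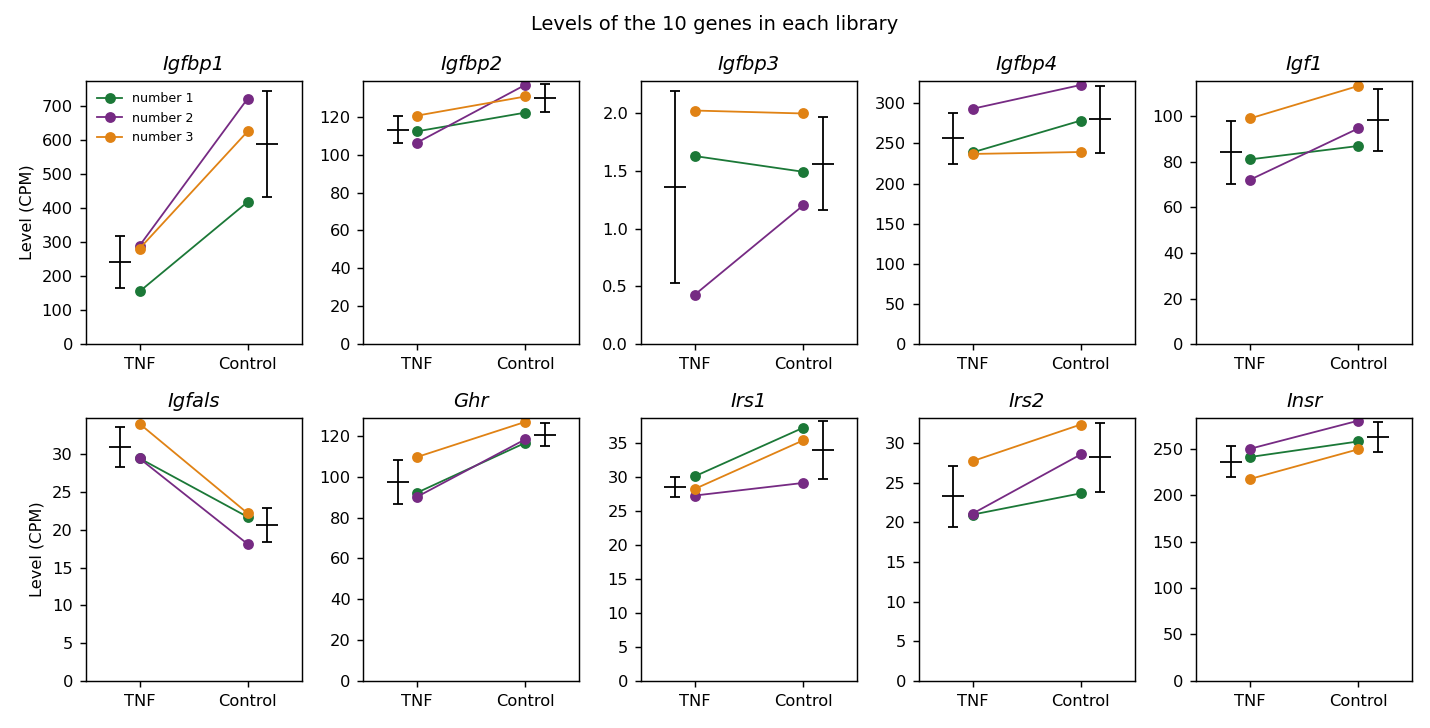
Level in CPM (vertical axis, from 0) of each of the 10 genes in TNF (left) and Control (right) libraries, with same-numbered libraries joined by a line and the mean ± SD of 3 libraries as a black bar. Igfbp1 is lower with TNF in all 3 pairs with no overlap between groups, Igfals is higher in all 3, and Igfbp3 lies at or below 2.02 CPM in every library.

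Igfbp1 had 155, 289.5 and 281 CPM in TNF 1, 2 and 3, and 418, 722 and 625 CPM in Control 1, 2 and 3. The highest TNF library lay well below the lowest Control library, and library number 1 was the lowest of both groups. The mean was 242 ± 75.4 CPM with TNF and 588 ± 155 CPM in Control (SD, n = 3 each), from at least 3237 reads in every library. The change was -1.43, -1.31 and -1.15 in the 3 pairs, with an SD of 0.138. In the unpaired fit it was -1.30 (SE 0.283, 95% interval -1.96 to -0.63), with an adjusted p of 0.148 in limma. The blocked fit gave an SE of 0.043 and an adjusted p of 1.75e-10 in limma; this SE is smaller than the SD of the pairs implies, because limma borrows variance from other genes. By the size of the change Igfbp1 had rank 7 from the bottom of 12275 genes, and by the blocked p it had rank 5. The authors' deposited table gave a log2 fold change of -1.30 with an adjusted p of 5.41e-95, from a model not described in the labels.

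Igfbp1 lies on chromosome 11 (mm10, 7197787 to 7202546, plus strand, NM_008341), with 4 exons, and was counted over its whole span of 4760 bases. Its proximal promoter is shown because it is the textbook example of an insulin response element, first described in the human gene. The 250 bases before the RefSeq start (GRCm38.p6, chr11:7197537-7197786, plus strand) follow, with capitals marking matches to TGTTTTG (here on the opposite strand, as CAAAACA) and to TATTTTG, the paired cores of that element.
Igfbp1 upstream: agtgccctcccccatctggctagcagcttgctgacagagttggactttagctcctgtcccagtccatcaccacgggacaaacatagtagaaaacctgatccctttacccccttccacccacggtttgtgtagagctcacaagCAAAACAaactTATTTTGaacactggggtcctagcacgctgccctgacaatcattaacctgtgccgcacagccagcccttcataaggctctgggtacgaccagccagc

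The matches lie 108 to 102 and 97 to 91 bases upstream of the start and do not overlap. Searched on both strands over the 250 upstream bases of 32851 RefSeq promoters, TGTTTTG was found in 5.56%, TATTTTG in 3.95% and both in 0.381%. RefSeq promoters were found for 9 of the 10 genes, in 13 rows because some have several starts, and Insr had no entry. Among them Igfbp1 alone held both cores, and Irs2 and Irs1 each held TGTTTTG. Windows around the match nearest to the start are shown for comparison with Igfbp1, from chr8:11008932-11008991 (minus strand) and chr1:82291440-82291496 (minus strand), with the match in capitals.
Irs2: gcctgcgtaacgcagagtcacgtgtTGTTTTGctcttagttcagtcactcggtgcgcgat
Irs1: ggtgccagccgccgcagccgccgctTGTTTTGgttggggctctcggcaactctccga

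The Irs2 match lies 37 to 31 bases upstream of the RefSeq start at 11008929, which is itself 499 bases upstream of the gene's start in the deposited table. Irs1 holds matches at 111 to 105 and at 32 to 26 bases. Of the other motifs searched, the FoxO site TGTTTAC (3.17% of all promoters) was found in Igfals, the glucocorticoid receptor core TGTTCT (16.1%) in Igfals and Igfbp2, and the NF-κB consensus (7.25%) in Irs1. The STAT site TTCNNNGAA (7.02%) was found upstream of 2 starts of Igfals. The full glucocorticoid receptor site (AGAACA and TGTTCT, 3 bases apart) and the PPAR direct repeat (AGGTCA repeated after 1 base) were found in 3 and 11 of the 32851 promoters and in none of the 13 rows. These are matches of letters in a short window and not measurements of binding.

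Downstream of Igfbp1 the next listed gene is Igfbp3, which lies tail to tail with it (chromosome 11, 7206091 to 7213923, minus strand), with a gap of 3544 bases. Igfbp3, the main IGF carrier of blood, is made in rat liver mostly by cells other than hepatocytes. It had 1.63, 0.429 and 2.02 CPM in TNF 1, 2 and 3, and 1.49, 1.20 and 2.00 CPM in Control 1, 2 and 3. The groups overlapped, and TNF 2 was the lowest library, with 8 reads. The change was -0.18 (SE 0.299 unpaired and 0.156 blocked), with limma adjusted p-values of 0.995 and 0.482, and its sign turned when TNF 2 was left out (0.15). The blocked 95% interval was -0.51 to 0.16, on a scale that compresses changes at this low level. Adcy1, the listed gene on the other flank at a gap of 19281 bases, had 6.13, 5.15 and 16.4 CPM in TNF and 6.35, 9.60 and 19.5 CPM in Control libraries, with a blocked adjusted p of 0.0612 in limma.

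Igfbp2 (chromosome 1, 72824480 to 72852471, plus strand), an IGF-binding protein of the liver and other tissues, had 112, 106 and 121 CPM with TNF against 122, 137 and 131 CPM in Control. All TNF libraries lay below all Control libraries, but the gap was small. It fell by 0.20 on the log2 scale (SE 0.075 unpaired and 0.046 blocked), and limma's adjusted p was 0.491 without the block and 0.00713 with it. Without replicate 2 the change was -0.12 and the blocked adjusted p 0.0846. The log2 ratio of Igfbp1 to Igfbp2 was 0.46, 1.44 and 1.21 in TNF 1, 2 and 3, and 1.77, 2.39 and 2.25 in Control 1, 2 and 3. The ratio did not overlap between groups and differed by -1.10, with an exact permutation p of 0.100 (two-sided), the smallest that 3 against 3 libraries can give. Within pairs the ratio differed by -1.31, -0.95 and -1.04. An exact test that flips the signs of these 3 differences gave a p of 0.25, the smallest it can give.

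Igfbp4 (chromosome 11, 99041260 to 99052643, plus strand), which binds IGFs and withholds them from their receptor, had 239, 293 and 237 CPM in TNF libraries and 278, 323 and 239 CPM in Control libraries. The groups overlapped, and the difference was clear in pairs 1 and 2 (-0.22 and -0.14) and near 0 in pair 3 (-0.01). Igfbp4 fell by 0.12 with a blocked adjusted p of 0.0335 in limma, against 0.956 unpaired. It did not pass without replicate 1 (0.255) or replicate 2 (0.097), and the authors' deposited table gave an adjusted p of 0.0861.

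**Figure D2:**
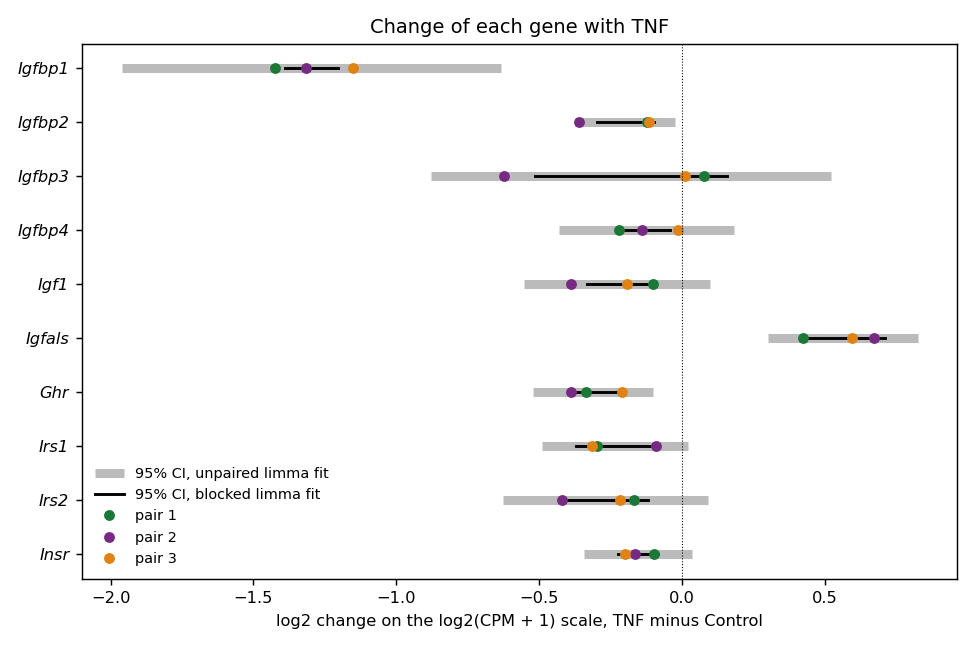
Change of each gene on the log2(CPM + 1) scale, TNF minus Control (horizontal axis), with 1 point per same-numbered pair, the 95% interval of the unpaired limma fit as a grey bar and that of the blocked fit as a black line. Igfbp1 lies between -1.43 and -1.15 in the 3 pairs, Igfals between 0.42 and 0.67, and the points of 7 other genes lie between -0.42 and 0.

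Igf1, the growth factor itself (chromosome 10, 87859056 to 87937047, plus strand), had 81.1, 72.2 and 99.1 CPM in TNF 1, 2 and 3, and 87.0, 94.7 and 113 CPM in Control 1, 2 and 3. Libraries of number 3 were the highest of both groups, and the groups overlapped, although each TNF library lay below its same-numbered Control library. Igf1 fell by 0.23 (SE 0.139 unpaired and 0.049 blocked), and limma's adjusted p was 0.819 without the block and 0.00451 with it. Without replicate 2 the change was -0.15 and the blocked adjusted p 0.0511.

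Igfals encodes the acid-labile subunit, which prolongs the life of IGF-1 in blood and is induced by GH. It was the gene among the 10 that rose, with 29.5, 29.5 and 34.1 CPM in TNF libraries against 21.7, 18.1 and 22.2 CPM in Control libraries. The lowest TNF library lay above the highest Control library. The mean was 31.0 ± 2.65 CPM with TNF and 20.7 ± 2.23 CPM in Control (SD, n = 3 each), a change of 0.56 (SE 0.112, 95% interval 0.30 to 0.83 unpaired), and limma's adjusted p was 0.108 without the block and 3.81e-05 with it. The pairs gave 0.42, 0.67 and 0.60. The gene passed the blocked fit whichever replicate number was left out, in fits that lean on variance from other genes. In the authors' deposited table its log2 fold change was 0.59, with an adjusted p of 3.81e-16. Igfals lies on chromosome 17 (24878770 to 24882008, plus strand). A STAT site upstream of a RefSeq start of the gene (chr17:24878163-24878191, plus strand) is shown (this start lies 539 bases upstream of that in the deposited table) because STAT5 carries the GH signal to this gene; capitals mark TTCNNNGAA.
Igfals: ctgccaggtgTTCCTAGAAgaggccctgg

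Ghr, the GH receptor, had 92.3, 90.2 and 109.7 CPM in TNF 1, 2 and 3, and 117, 118 and 127 CPM in Control 1, 2 and 3. Every TNF library lay below every Control library. Ghr fell by 0.31 (SE 0.089, 95% interval -0.52 to -0.10 unpaired), and limma's adjusted p was 0.298 without the block and 8.04e-05 with it. It passed the blocked fit whichever replicate number was left out, although such fits lean on variance from other genes. It lies on chromosome 15 (3317755 to 3583352, minus strand) over 265598 bases, all of them counted, so reads from its introns enter its level.

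The insulin receptor gene Insr (chromosome 8, 3150922 to 3279617, minus strand) had 241, 250.1 and 218 CPM in TNF libraries and 258, 280.3 and 249.5 CPM in Control libraries. The groups met at their edges, and each pair was lower with TNF by 0.10 to 0.20. Insr fell by 0.15 (SE 0.080 unpaired and 0.033 blocked), and limma's adjusted p was 0.723 without the block and 0.00407 with it. It too passed whichever replicate number was left out, with the same limit.

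Irs1 (chromosome 1, 82233105 to 82291439, minus strand) and Irs2 (chromosome 8, 10986964 to 11008430, minus strand) encode docking proteins that carry the signal from the receptor. Irs1 had 30.1, 27.3 and 28.3 CPM with TNF against 37.3, 29.2 and 35.4 CPM in Control. Irs2 had 20.96, 21.1 and 27.7 CPM with TNF against 23.6, 28.5 and 32.3 CPM in Control. Both sets of libraries overlapped between groups. Irs1 fell by 0.23 and Irs2 by 0.27, with blocked adjusted p-values of 0.0161 and 0.0129 and unpaired values of 0.631 and 0.782 in limma. Irs1 did not pass without replicate 1 (0.0649) or replicate 3 (0.0909), and Irs2 did not pass without replicate 2 (0.135). The log2 ratio of Irs2 to Irs1 averaged -0.30 ± 0.24 with TNF and -0.26 ± 0.32 in Control (SD, n = 3 each), a difference of -0.03 with an exact permutation p of 1.00, and pair 2 differed in sign from pairs 1 and 3 (0.13, -0.33 and 0.10). Irs2 was counted over 20886 of 21467 bases, whereas the other 9 genes were counted over their whole span.

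**Figure D3:**
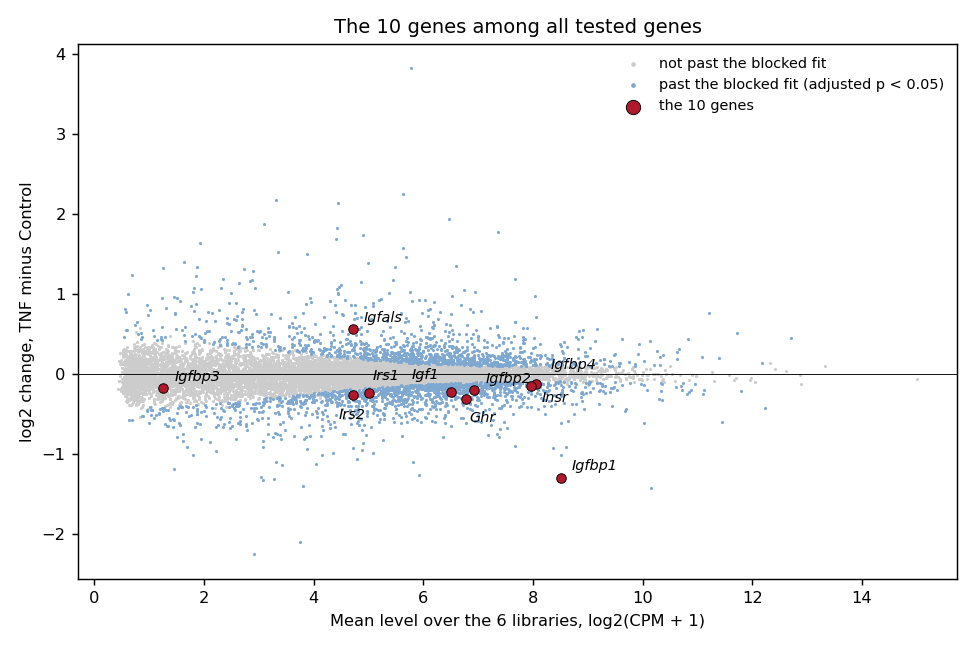
Change TNF minus Control (vertical axis, log2) against the mean level over the 6 libraries (horizontal axis, log2(CPM + 1)) for all 12275 tested genes, with genes past the blocked limma fit in blue and the 10 genes in red. Igfbp1 lies at -1.30, near the lower edge of the cloud, Igfals at 0.56, and the remaining genes between -0.31 and -0.12.

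Per kilobase of the annotated transcript, Igfbp1 was the highest of the 10 in both groups, at 159 ± 49.4 CPM per kb with TNF and 386 ± 102 CPM per kb in Control (SD, n = 3 each). Igfbp2 followed at 86.5 and 99.4 CPM per kb, and Igfbp4 at 66.9 and 73.1 CPM per kb, in TNF and Control libraries. Insr and Ghr came next at 25.3 and 23.3 CPM per kb with TNF and at 28.1 and 28.9 CPM per kb in Control, and their ranges overlapped in both groups. Igf1 and Igfals overlapped with TNF (11.9 and 11.8 CPM per kb) but not in Control (13.9 and 7.88 CPM per kb). Irs2, at 3.68 and 4.45 CPM per kb in TNF and Control, and Irs1, at 3.13 and 3.71 CPM per kb, overlapped in Control only. Igfbp3 was lowest, at 0.561 and 0.645 CPM per kb. Introns were counted too, so these levels per length are approximate, most of all for long genes. The order below Igfbp1 depends on the length used. Per kilobase of counted bases Igfbp1 was again highest, at 50.8 CPM with TNF and 124 CPM in Control. There Igfbp4 (22.5 and 24.6) and Igfals (9.57 and 6.38) lay above Igfbp2 (4.04 and 4.64).

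Across the 6 libraries the log2 level of Igfbp1 ran most closely with Zfyve21 (Pearson r 0.992), Bad (0.992), Slc38a4 (0.988), Cyp2c39 (0.988) and Cpn1 (0.987). Slc38a4, an amino acid transporter, had 563, 632 and 630 CPM in TNF and 725, 866 and 823 CPM in Control libraries. Cyp2c39 lay at or below 1.12 CPM in every library and has close paralogs that may share reads. Among the other genes of the axis, Igfbp2 and Ghr had r of 0.833, Irs2 0.763, Igfbp3 0.060 and Igfals -0.82. These values describe 6 libraries that share the group difference and the pairing.

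The remaining genes of the axis were described from 7 lists, with 121 tested genes outside the 10. In the blocked fit 11 of these rose, near the share of all tested genes (9.40%), and 30 fell (11.2% of all). Those 2 shares are the ones to set beside the counts of each list below. In the unpaired fit 1 of the 121 passed, Adam17. In the IGF system list 1 of 10 tested genes rose and none fell; at an unadjusted p under 0.05 the blocked fit had 2 higher and 0 lower (14.2% and 17.5% of all tested genes), and limma-voom with the block called 1 and 0. Igf2r, the receptor that clears IGF-2, rose to 238, 286 and 269 CPM in TNF libraries, against 211, 247 and 227 CPM in Control libraries (log2 0.21, adjusted p 2.61e-04 blocked and 0.601 unpaired in limma). Igf2 had 2 reads and Igfbp5 36 reads over all 6 libraries, and neither was tested. The median change of the list was 0.05.

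Of 17 tested genes of GH receptor signalling 3 rose and none fell. At an unadjusted p under 0.05 the blocked fit had 2 lower genes, and limma-voom with the block called 0 lower. Without replicate 1 or replicate 2, 1 gene was lower. The genes that rose were 2 feedback inhibitors and a protease. Socs2, an inhibitor of GH signalling that STAT5 induces, had 16.3, 30.5 and 27.1 CPM with TNF against 6.74, 7.03 and 9.93 CPM in Control, a change of 1.498 (SE 0.246) and limma's adjusted p was 0.0682 without the block and 1.08e-06 with it. The groups did not overlap, and TNF 1 was the lowest of the TNF libraries. Cish, a relative of Socs2 with the same role, had 9.33, 9.71 and 10.9 CPM with TNF and 7.13, 4.92 and 7.40 CPM in Control (log2 0.57, adjusted p 0.00216 blocked and 0.310 unpaired in limma). Adam17, the protease that sheds the GH receptor and TNF from the cell surface, had 72.9, 74.0 and 76.7 CPM with TNF against 48.2, 51.3 and 52.7 CPM in Control. Its change of 0.55 passed both limma fits (adjusted p 0.0273 unpaired and 6.94e-07 blocked), and no single library could be left out without losing the unpaired call (0.0776 to 0.135). The median of this list was -0.01.

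The list of GH-responsive liver genes split, with 3 of 13 tested genes higher, 3 lower and a median of 0.01. Besides Socs2 and Cish, which are also on the previous list, Onecut1, a hepatic transcription factor, fell to 3.73, 3.92 and 2.91 CPM with TNF, against 5.19, 9.64 and 6.47 CPM in Control (log2 -0.81, adjusted p 6.59e-04 blocked and 0.261 unpaired in limma). Selenbp2 fell by 0.68, with 148, 176 and 118 CPM in TNF libraries against 213, 277 and 216 CPM in Control libraries (adjusted p 4.01e-07 blocked and 0.191 unpaired in limma). It has a close paralog, Selenbp1, that may share reads.

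**Figure D4:**
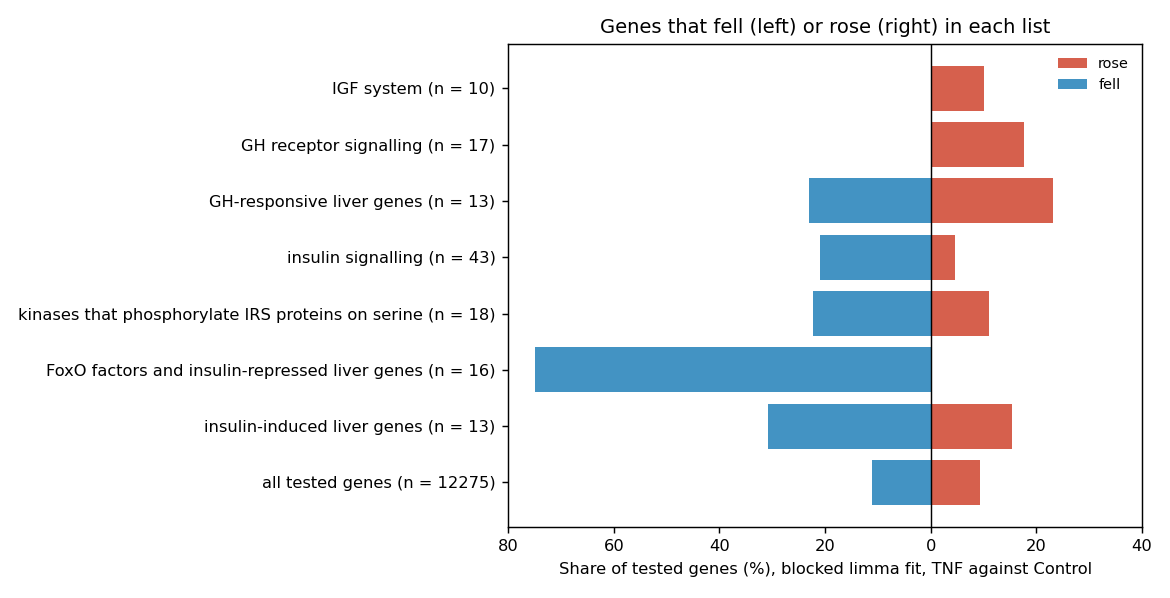
Share of tested genes that fell (blue, left of 0) or rose (red, right of 0) in the blocked limma fit, in percent, for each of the 7 lists and for all tested genes, with the number tested in brackets. The list of FoxO factors and insulin-repressed genes has 75.0% lower and none higher, against 11.2% and 9.40% of all genes. The lists were chosen with earlier results of these data known, and this list also holds PPARα targets.

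Of 43 tested genes of insulin signalling 9 fell and 2 rose, with a median of -0.05. The 4 with the largest changes were adaptors and a ubiquitin ligase around the receptor. Grb10, an adaptor that inhibits the insulin and IGF-1 receptors, rose to 93.8, 94.6 and 87.6 CPM with TNF, against 71.0, 69.0 and 64.1 CPM in Control (log2 0.43, adjusted p 2.91e-06 blocked and 0.0641 unpaired in limma). Its relative Grb14 changed the other way, to 67.6, 70.3 and 48.5 CPM with TNF against 93.0, 92.3 and 64.3 CPM in Control (log2 -0.41, adjusted p 6.20e-06 blocked and 0.613 unpaired in limma). The Grb10 libraries did not overlap between groups, whereas those of Grb14 did. The ubiquitin ligase Cblb fell by 0.31 and the docking protein Gab1 by 0.29. The higher genes numbered 3 without replicate 1 and 1 without replicate 2 or replicate 3.

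Among 18 kinases that phosphorylate IRS proteins on serine, a step known to blunt insulin signalling, 2 rose and 4 fell, with a median of -0.01. Ikbkb, which encodes the IκB kinase IKKβ, rose to 153, 181 and 147 CPM with TNF, against 134, 133 and 114 CPM in Control (log2 0.33, adjusted p 8.51e-05 blocked and 0.348 unpaired in limma). Mapk9, which encodes the kinase JNK2, rose by 0.22, while the protein kinase C gene Prkcz fell by 0.32 and the S6 kinase gene Rps6kb2 by 0.23. Rps6kb2 had an adjusted p of 0.0333 blocked and did not pass whichever replicate number was left out (limma). Lower genes numbered 2 without replicate 1, and higher genes 3 without replicate 2.

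Of 16 tested FoxO factors and insulin-repressed liver genes 12 fell and none rose, with a median of -0.26; none was higher at an unadjusted p under 0.05 or by limma-voom with the block, and in the unpaired limma fit none passed, with 7 lower at an unadjusted p under 0.05, as were 4.32% of all tested genes. G6pc, the glucose-releasing phosphatase, had 10.7, 8.96 and 16.0 CPM with TNF against 19.8, 26.4 and 27.3 CPM in Control (log2 -1.01, adjusted p 2.17e-05 blocked and 0.141 unpaired in limma). The libraries of G6pc did not overlap between groups. The 4 tested genes of the list that did not pass the blocked fit were Foxo3, Foxo4, Pck1 and Ppargc1a. Klf15, a glucocorticoid-induced factor of fasting, fell by 0.61 and Sesn1 by 0.46. Foxo1 itself fell by 0.36, with 68.7 ± 5.83 CPM in TNF and 89.2 ± 15.8 CPM in Control (SD, n = 3 each). Cpt1a and Angptl4 of this list are also PPARα targets, so the list does not isolate insulin-repressed genes, and it was written with earlier results of these data known.

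The insulin-induced liver genes went both ways, with 4 of 13 lower, 2 higher and a median of -0.005. Acacb, which makes the malonyl-CoA that restrains fatty acid oxidation, fell by 0.37 (adjusted p 2.23e-05 blocked and 0.554 unpaired in limma). Elovl6, a fatty acid elongase, rose by 0.50, with 124, 126 and 108 CPM in TNF libraries against 104, 84.3 and 67.2 CPM in Control libraries (adjusted p 3.83e-05 blocked and 0.342 unpaired in limma). Pklr, the liver pyruvate kinase, also rose by 0.50, to 132, 149 and 143 CPM with TNF against 108, 90.5 and 100.7 CPM in Control (adjusted p 2.45e-05 blocked and 0.0723 unpaired in limma).

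**Figure D5:**
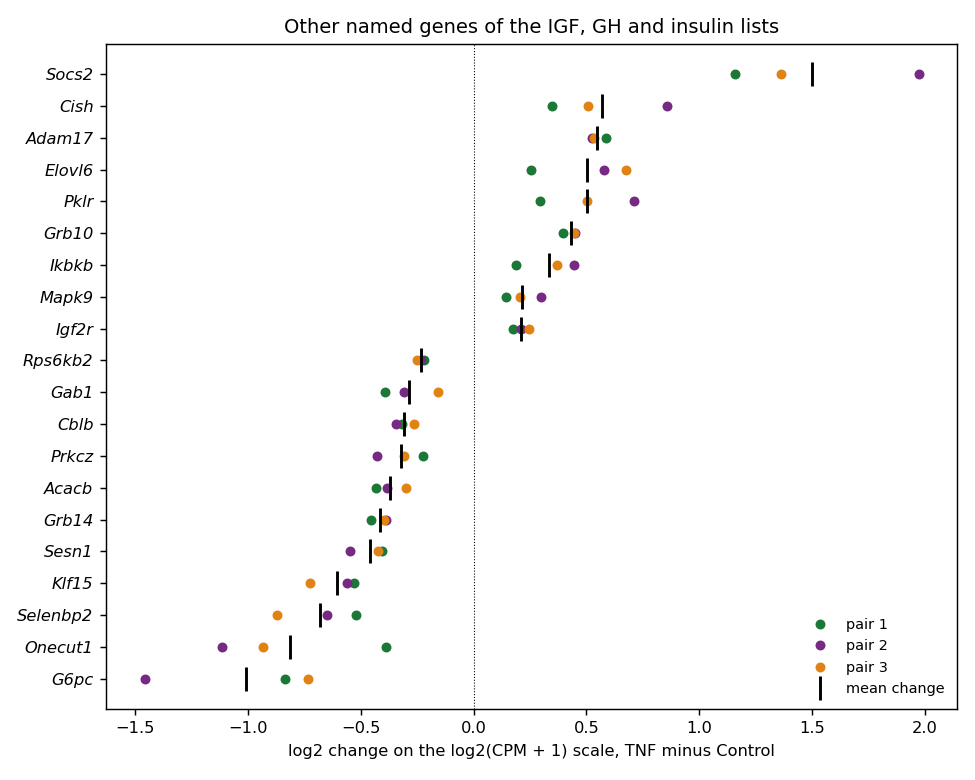
Change of the other named genes on the log2(CPM + 1) scale, TNF minus Control (horizontal axis), with 1 point per same-numbered pair and the mean as a black tick. The means run from Socs2 at 1.498 to G6pc at -1.01. Every gene shown has the same sign in the 3 pairs, which follows largely from the choice of blocked calls.

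By the authors' deposited table, 7 of the 10 genes were lower and Igfals higher at an adjusted p under 0.05, against 8.32% lower and 6.85% higher of its 19764 genes. Igfbp3 and Igfbp4 did not pass there.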

How the data were processed

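Reads were processed with STAR 2.6.1a and mm10, per the submitters' processing notes. For the counter, strand setting and annotation, the value is not given in the sources used here. Per gene and library the authors deposited 1 log2 CPM value, with a prior that sets a shared floor of -3.35. The deposited table also gave, for each gene, its log2 fold change with p-value, adjusted p-value and a likelihood ratio score, and other columns of positions and lengths. Counted lengths equalled the gene span in 85.0% of genes, so introns were counted.

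Subtracting that floor, after conversion from log2, left whole multiples of a step per library in 100% of 118584 values (tolerance 1e-06 reads, relative above 1 read). The authors' scaling, 0.963 to 1.03 times the totals, was kept. A count of 0 allows up to 3 reads, or 0.124 to 0.166 CPM, for counting error only.

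The design had named limma-trend for normalized values. limma 3.58.1 (R 4.3.3) was run on log2(CPM + 1), two-sided, with a variance prior that follows the level and Benjamini-Hochberg adjustment. A gene was tested if 3 libraries reached 10 reads (at the depth of the median library) and the total reached 15; 7489 genes were not tested. The fit was run on simulated data as a check of the code only, with spreads set by hand and not taken from these libraries. limma-voom used the recovered reads. Exact permutation tests used scipy 1.17.1. Same-numbered libraries deviated together from their group means (r between 0.785 and 0.793, others between -0.47 and -0.34), where cancellation within a group makes some negative values unavoidable. The pairing rests on the title numbers and these values. Every pair of libraries differed beyond sampling noise (chi-square 15.0 to 70.9 per degree of freedom).

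The members and lists were chosen with earlier results of these data known. All 10 genes are named, up to 4 blocked calls per list with the largest change, the 5 genes most correlated with Igfbp1, and its nearest neighbours. Foxo1, Cpt1a, Angptl4, Igf2 and Igfbp5 were added after their values were seen, as were the genes of the FoxO list that did not pass. Ceacam1 and Angptl8 were not analysed here. Some genes that the naming rule picks are not reported here; the list counts include them. Transcript lengths came from GENCODE mouse release 21, through the RefSeq identifier, taking the longest match.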

Additional observations from a re-analysis of the deposited data

How the results depend on the processing

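The pairing by replicate number decided the calls. Without a block 54 genes passed in all, and none of the 10; with the replicate block these were 2528 and 9, and 41 in place of 1 among the other pathway genes. With the block, median-of-ratios scaling gave 2568 genes, 9 of the 10 and 44 pathway genes, a pseudocount of 0.1 gave 2495, 9 and 41, and limma-voom 2520, 9 and 41. Leaving out a replicate number with the block gave 2305, 1792 and 2158 genes without replicates 1, 2 and 3, with 7, 5 and 8 of the 10 and 42, 37 and 38 pathway genes. Without a block, leaving out a library gave 9 to 30 genes, 0 of the 10 and 0 to 1 pathway genes, no filter gave 31 genes, with more genes tested, and library totals gave 2 pathway genes. The other unpaired settings kept 0 of the 10.

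Igfbp1 was lower in all 19 settings. Without a block its log2 change lay between -1.53 and -1.01 and its adjusted p between 0.112 and 0.490 (limma). With the replicate block it was -1.30, -1.29 with median-of-ratios scaling, -1.30 with a pseudocount of 0.1 or limma-voom, and between -1.37 and -1.23 without a replicate number. The blocked limma adjusted p of Igfbp1 went from 1.75e-10 with all libraries to 3.91e-68 without replicate 1. The p-values of these smaller fits are therefore no measure of robustness. Igfbp3 lay between -0.39 and 0.149 without a library and turned positive without TNF 2 (0.149); it was 0.0443 without replicate 2 in the blocked fit. The Irs2 to Irs1 ratio difference lay between -0.218 and 0.085 when a library was left out, and turned positive without TNF 1 (0.0711), Control 2 (0.085) or Control 3 (0.0356). The Igfbp1 to Igfbp2 ratio kept its sign throughout. The cause of these shifts was not tested. Depth limits Igfbp3 alone among the 10, at 8 to 41 reads a library.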
